A study of Mus musculus with 4 samples.

Results

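The miR-23/27/24 clusters are small groups of neighbouring miRNA genes whose hairpins are cut from shared primary transcripts. Of 1078 mature mouse miRNAs with a value in the deposited table, 7 were chosen by name: miR-23a-3p, miR-23b-3p, miR-24-3p, miR-27a-3p, miR-27b-3p, miR-27b-5p and miR-3074-5p. The rule used names and no measured value, but the members were chosen with earlier results of these data known. Small RNA of mouse hematopoietic and dendritic cells (DC) was sequenced in 4 libraries, 1 per cell stage, all from C57BL/6J mice, with femur marrow for the cultures taken at 5 to 6 weeks of age.

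The HSC library came from bone marrow cells sorted as c-Kit+, Sca1+ and negative for lineage markers, with a stated purity above 95%. Immature DC (imDC) were bone marrow progenitors kept with GM-CSF (10 ng/mL) and IL-4 (1 ng/mL) for 6 days. Mature DC (maDC) had the same cytokines, received the bacterial product LPS (10 ng/mL) after day 4, and were picked with CD11c magnetic beads at day 8. For regulatory DC (DCreg), maDC were grown together with endothelial-like stromal cells of the spleen (ESSC) for 7 days or more and picked again with CD11c beads. No source used here says if animals were pooled. With 1 library per stage there was no replicate check and no test between stages. Every difference below is between 2 libraries, intervals cover counting error only, and fewer cells of a type cannot be told apart from less RNA per cell.

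MiRNAs guide Argonaute proteins to messenger RNAs, mainly through the seed near their 5′ end, and lower the output of those messages. The Mir23a cluster is known in blood as a target of the myeloid transcription factor PU.1 that restrains B-lymphoid fate. miR-27 is known for restraining adipocyte genes and miR-24 for acting on cell cycle and DNA repair genes. Both clusters are made as one precursor each, so their products can share transcription while each mature arm is trimmed and degraded on its own.

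The mature sequences show which members can be told apart by reads. They are written as in the deposited table with the seed, bases 2 to 8 from the 5′ end, in capitals.
miR-23a-3p: aTCACATTgccagggatttcc
miR-23b-3p: aTCACATTgccagggattacc
miR-27a-3p: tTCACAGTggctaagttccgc
miR-27b-3p: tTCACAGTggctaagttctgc
miR-24-3p: tGGCTCAGttcagcaggaacag
miR-3074-5p: gTTCCTGCtgaactgagccagt
miR-27b-5p: aGAGCTTAgctgattggtgaac
RefSeq (GRCm38.p6) holds the same mature sequence for 6 of the 7, and miR-23b-3p was matched by name only in the deposited table. Each a and b pair has 1 seed. The miR-23 pair differs by T19A and the miR-27 pair by C19T, a paralog first and b paralog second, counted from the 5′ end. A read of 18 nt therefore cannot be given to one paralog. The seeds of miR-23 and miR-27 are equal at 6 of 7 bases. miR-3074-5p is the name for the opposite strand of the miR-24 site, and 20 of its 22 bases pair with miR-24-3p.

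In GRCm38 the Mir23a cluster spans 404 bases of chromosome 8 on the plus strand, with Mir23a at 84208518 to 84208592, Mir27a at 84208672 to 84208758 and Mir24-2 at 84208815 to 84208921. The last of these shares 2 bases with an exon of Gm26532, annotated as a lincRNA. The Mir23b cluster spans 792 bases of chromosome 13 on the plus strand, inside the protein-coding gene 2010111I01Rik, with Mir23b at 63300484 to 63300557, Mir27b at 63300712 to 63300784 and Mir24-1 at 63301208 to 63301275. Mir3074-2 (chromosome 8, 84208825 to 84208907) and Mir3074-1 (chromosome 13, 63301199 to 63301283) are annotated on the minus strand across the miR-24 hairpins. miR-24-3p is the same from both clusters, so its level is a sum over both.

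The libraries held 4904897 to 6572858 reads, and the deposited values summed to 2725948 to 5251069 per library. Levels are given as deposited values in ppm of that sum (value per library total, scaled to 1000000), and as reads recounted by exact match from the deposited lists of unique sequences, in ppm of all reads recounted to miRNAs. The recount placed 80.2 to 84.0% of listed reads. Erythroid miRNAs (the list led by miR-451 and miR-144) summed to 13763 ppm in HSC and to 1.56 to 19.0 ppm in the DC libraries, and a stromal list to 1076 ppm in HSC against 61.3 to 254 ppm. A list of miRNAs linked to DC activation summed to 6245 ppm in HSC and 93029 in imDC, then 69765 in maDC and 36761 in DCreg. Most of this sum was miR-146b-5p, at 6182, 89225, 67585 and 36546 ppm in that order. miR-155-5p was at 47.6, 2609, 1651 and 141 ppm. Every miRNA of this list was lower in maDC than in imDC. A list of HSC and progenitor miRNAs summed to 2817 ppm in HSC, 584 and 1051 ppm in imDC and maDC, and 3141 ppm in DCreg, so this list did not mark the HSC library alone. Its miRNAs differed between HSC and DCreg, with miR-196b-5p at 251 and 12.5 ppm and miR-10a-5p at 2193 and 2042. miR-130a-3p was at 372 and 1086 ppm but had 0 recounted reads. In recounted reads the list summed to 1413, 424, 618 and 1187 ppm in HSC, imDC, maDC and DCreg, highest in HSC. That sum holds no reads of miR-130a-3p, whose deposited level was higher in DCreg than in HSC. The part of other cell types in the differences below was not tested.

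All 7 members stood highest in imDC in the deposited values, and all but miR-3074-5p in recounted reads. The 7 together made up 1.02% of the deposited sum in HSC and 2.90% in imDC, then 0.847% in maDC and 1.18% in DCreg. In the recount they made up 1.04, 3.75, 1.03 and 1.26%, in the same order.

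miR-23a-3p, the most abundant member in the deposited values of every library, was at 3826 ppm in HSC and 11001 in imDC, then 3698 in maDC and 4121 in DCreg. miR-23b-3p was at 903, 2145, 870 and 1026 ppm in that order. For both, imDC stood apart and the other libraries lay close together, the widest gap among them being 1.18-fold, for miR-23b-3p between maDC and DCreg.

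miR-27a-3p was at 1672 ppm in HSC and 5450 in imDC, then 932 in maDC and 1937 in DCreg. miR-27b-3p was at 2414, 6544, 585 and 1705 ppm, in the same order. The lowest library for both was maDC, below HSC. miR-27b-5p, the other arm of the Mir27b hairpin, was at 267 ppm in HSC and 596 in imDC, then 76.9 in maDC and 30.4 in DCreg, so that it was lowest in DCreg.

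miR-24-3p was at 557 ppm in HSC and 1621 in imDC, then 1151 in maDC and 1506 in DCreg. HSC was its lowest library and the DC libraries lay closer to each other than to HSC. In recounted reads miR-24-3p was at 2862, 10590, 6310 and 7148 ppm, the highest member in every library, and its rank among 1078 miRNAs was 32, 16, 19 and 14 against 84, 52, 46 and 43 in the deposited values.

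**Figure D1:**
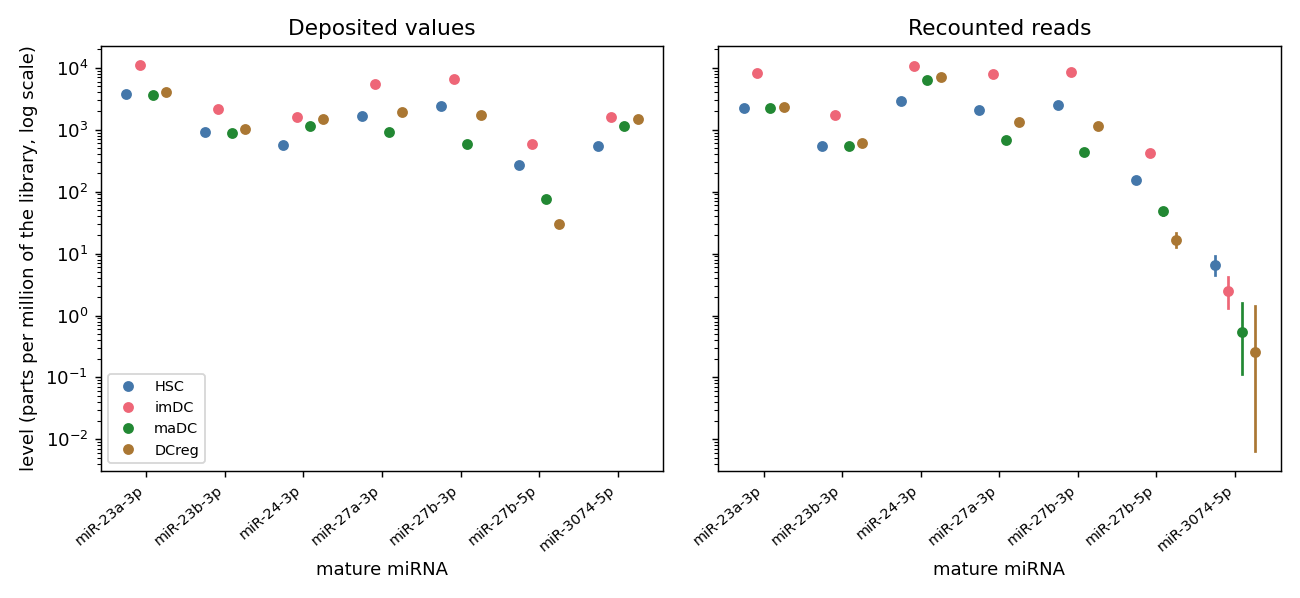
Level of the 7 members in each library, in ppm of the library on a log axis, as deposited (left) and recounted from reads (right, bars are exact 95% counting intervals). All 7 are highest in imDC on the left, and on the right miR-3074-5p falls to 6.54 ppm or less while miR-24-3p reaches 10590 ppm.

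The comparison of imDC with HSC asked what differed between sorted progenitors and cultured immature DC. All 7 members were at least 2-fold higher in imDC, where 26.2% of the 187 miRNAs at 100 ppm or more in either library were, and their median log2 ratio was 1.52 against -0.12 over all of those. Without miR-3074-5p, whose values are given later, they were 6 of 6. The ratio of miR-27a-3p was 3.26-fold (recount 3.82-fold, 3.74 to 3.90), that of miR-24-3p 2.91-fold (recount 3.70-fold) and that of miR-23a-3p 2.88-fold (recount 3.70-fold). miR-27b-3p was 2.71-fold, miR-23b-3p 2.38-fold and miR-27b-5p 2.23-fold higher. In recounted reads 6 of 6 tested members were at least 2-fold higher, where 36.7% of 147 miRNAs were, and with reads of 20 nt or more 6 of 6 where 38.6% of 145 were. At a 3-fold limit 1 member, miR-27a-3p, was past it, and 14.4% of all miRNAs tested. miR-3074-5p was 2.93-fold higher as deposited but 2.65-fold lower in recounted reads, with 34 reads in HSC and 13 in imDC.

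The comparison of maDC with imDC asked what differed after LPS. The maDC were also taken at day 8 instead of day 6 and are described as picked with CD11c beads. These differences cannot be told apart from LPS. Of the 7 members 5 were at least 2-fold lower in maDC, and 45% of the 160 miRNAs tested were lower, so the count lies on a background in which many miRNAs were lower. The members' median was -1.57 against -0.88. The fall was 11.2-fold for miR-27b-3p (19.6-fold in the recount, 18.8 to 20.4), 7.76-fold for miR-27b-5p (8.85-fold in the recount, 7.79 to 10.1) and 5.85-fold for miR-27a-3p (11.4-fold in the recount, 11.1 to 11.8). These recount folds split reads that fit both paralogs equally. With reads that match a single miRNA best, miR-27a-3p was 3.94-fold and miR-27b-3p 8.90-fold lower. With reads equal to the mature sequence they were 18.9-fold and 2.97-fold lower, so the order of the paralogs turned with the reads counted. The miR-23 paralogs were 2.98-fold (miR-23a-3p) and 2.47-fold (miR-23b-3p) lower. In recounted reads 5 of 6 tested members were lower, where 59.1% of 132 miRNAs were, and with reads of 20 nt or more 5 of 6 where 58.1% of 129 were. miR-24-3p was 1.41-fold lower and not past the limit, and its direction turned under both TMM (trimmed mean of M-values) and median-of-ratios scaling. Median-of-ratios scaling, which moved every log2 ratio of this comparison by 0.70, left 3 members past the limit, miR-27a-3p, miR-27b-3p and miR-27b-5p, and 23.1% of all miRNAs tested.

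The comparison of DCreg with maDC asked what differed after culture on the stromal layer. Longer culture and the repeated picking with CD11c beads cannot be told apart from the stromal cells. Of 6 tested members 2 were at least 2-fold higher and none lower, where 20.3% of 138 miRNAs were higher and 28.3% lower. These were miR-27b-3p at 2.91-fold (2.68-fold in the recount, 2.55 to 2.81) and miR-27a-3p at 2.08-fold (1.98-fold in the recount, 1.89 to 2.06). In recounted reads 1 of 5 tested members was past the limit, where 18.1% of 105 miRNAs were higher. miR-23a-3p and miR-23b-3p were 1.11- and 1.18-fold higher, and both turned to lower when all listed reads were the total. miR-24-3p was 1.31-fold higher (recount 1.13-fold). miR-27b-5p, under 100 ppm in both libraries and so not tested, was 2.52-fold lower (recount 2.87-fold, 2.18 to 3.82), the opposite direction to miR-27b-3p from the same hairpin. Stromal miRNAs summed to 177 ppm in maDC and 254 in DCreg and endothelial miRNAs to 2.46 and 1.47 ppm, and their part was not tested.

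DCreg were also set against imDC, and this comparison shares its libraries with the other comparisons. Of the 7 members 5 were at least 2-fold lower in DCreg and 56% of 168 miRNAs were, with medians of -1.42 and -1.25, so the share of members is near the background. miR-27b-5p was 19.6-fold lower (recount 25.4-fold, 19.9 to 32.9). miR-27b-3p was 3.84-fold, miR-27a-3p 2.81-fold, miR-23a-3p 2.67-fold and miR-23b-3p 2.09-fold lower. In recounted reads 5 of 6 tested members were lower (65.7% of 137 miRNAs), and with reads of 20 nt or more 4 of 6 (66.4% of 134). miR-24-3p was at 1506 ppm in DCreg and 1621 in imDC, and its direction turned under 3 of 4 other scalings. TMM and median-of-ratios scaling each left 2 members past the limit, miR-27b-3p and miR-27b-5p, and 38.7% of all miRNAs tested.

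The reads of the miR-27-3p pair changed in length between libraries. In HSC and imDC most reads of the pair ended 3 or 4 bases short of the annotated end, and in maDC and DCreg the 20-nt form was the commonest. The forms that carried most reads are shown, with the bases beyond position 18 in capitals.
17 nt: ttcacagtggctaagtt
18 nt: ttcacagtggctaagttc
19 nt: ttcacagtggctaagttcT
20 nt: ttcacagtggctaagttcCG
21 nt, miR-27a-3p: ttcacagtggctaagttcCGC
21 nt, miR-27b-3p: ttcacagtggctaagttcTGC
The 18-nt form had 12854 reads in HSC and 43144 in imDC, then 682 in maDC and 1691 in DCreg, which were 54.6, 50.1, 11.0 and 17.1% of the pair's reads. The 20-nt form had 1156, 6622, 2371 and 2718 reads, or 4.91, 7.69, 38.4 and 27.5%. The 17-nt form had 3755, 13152, 83 and 326 reads. From imDC to maDC the share of the 18-nt form thus went down and that of the 20-nt form up, while reads of both forms were fewer in maDC.

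Reads under 20 nt, at least 2 nt shorter than the annotated 21 nt, were 87.1% of the pair in HSC (86.7 to 87.6) and 81.9% in imDC (81.7 to 82.2), then 28.8% in maDC (27.6 to 29.9) and 46.9% in DCreg (45.9 to 47.9). In 44 other miRNAs with at least 1000 reads in every library, the median share of reads short by 2 nt or more was 8.73, 8.08, 2.08 and 5.80%. The miR-27 pair stood above all 44 in HSC and imDC, above 41 in maDC and above 39 in DCreg. From imDC to maDC its share was 53.2 percentage points lower, a larger fall than in 43 of the 44 others, whose median change was -0.66 points and whose range was -69.7 to 26.0. With each different sequence counted once, whatever its copies, the share under 20 nt was 22.5, 17.6, 16.2 and 22.3%, so the shift lies in the copies of a few sequences.

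The whole libraries moved too. Reads under 20 nt were 3.64% of all recounted reads in HSC and 4.54% in imDC, then 0.729% in maDC and 1.95% in DCreg, and without the miR-27 pair 3.26, 3.25, 0.698 and 1.83%. The miR-27 pair alone gave 29.5% of all recounted reads under 20 nt in imDC. The submitters describe RNA of 18 to 30 nt taken from a gel, so its lower edge lies within the lengths at issue, and the part of this selection in the length shares was not tested. Starts were alike, as 99.2 to 99.5% of the pair's reads began at the annotated first base, so the seed was the same in all of these forms.

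The size of the miR-27-3p differences depended on these short reads. In recounted reads of any length the pair was at 4532 ppm in HSC and 16352 in imDC, then 1119 in maDC and 2515 in DCreg. With reads of 20 nt or more alone it was at 607, 3095, 803 and 1362 ppm, so that maDC stood above HSC instead of below it. The pair was 14.6-fold lower in maDC than in imDC over all reads (14.2 to 15.0) and 3.85-fold lower with the longer reads (3.73 to 3.99), and 85.8% of the difference in ppm came from reads under 20 nt. From HSC to imDC the pair was 3.61-fold higher over all reads and 5.10-fold with the longer reads. From maDC to DCreg it was 2.25-fold and 1.70-fold higher, and no member was past the 2-fold limit in that comparison with reads of 20 nt or more (15.8% of 101 miRNAs were higher).

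With reads of 20 nt or more the miR-23 and miR-27 pairs fell by similar folds from imDC to maDC, and miR-24-3p by less. The miR-23-3p pair was 4.15-fold lower, the miR-27-3p pair 3.85-fold and miR-24-3p 1.72-fold lower. The reads of miR-27b-5p, annotated at 22 nt, are nearly all of 20 nt or more, so this length limit does not bear on that arm, and its own lengths are given with its read forms.

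**Figure D2:**
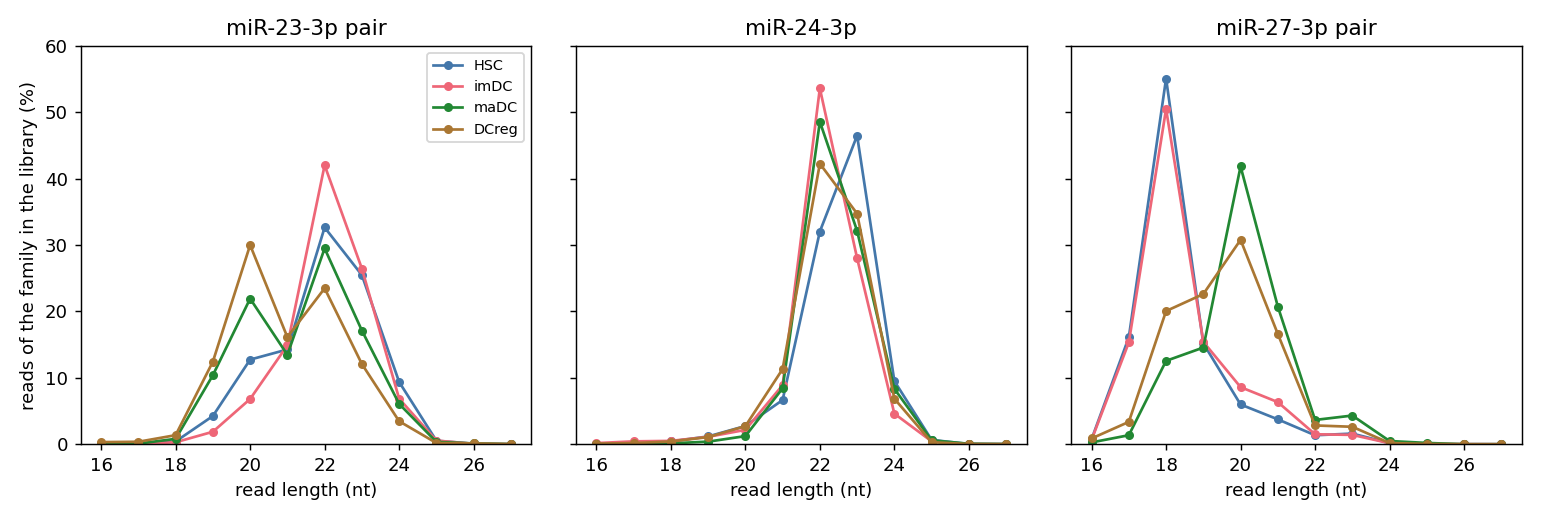
Share of each family's reads at each read length in nt, in percent, with 1 line per library. The miR-27-3p pair peaks at 18 nt in HSC and imDC and at 20 nt in maDC and DCreg, while miR-24-3p keeps its peak at 22 or 23 nt.

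**Figure D3:**
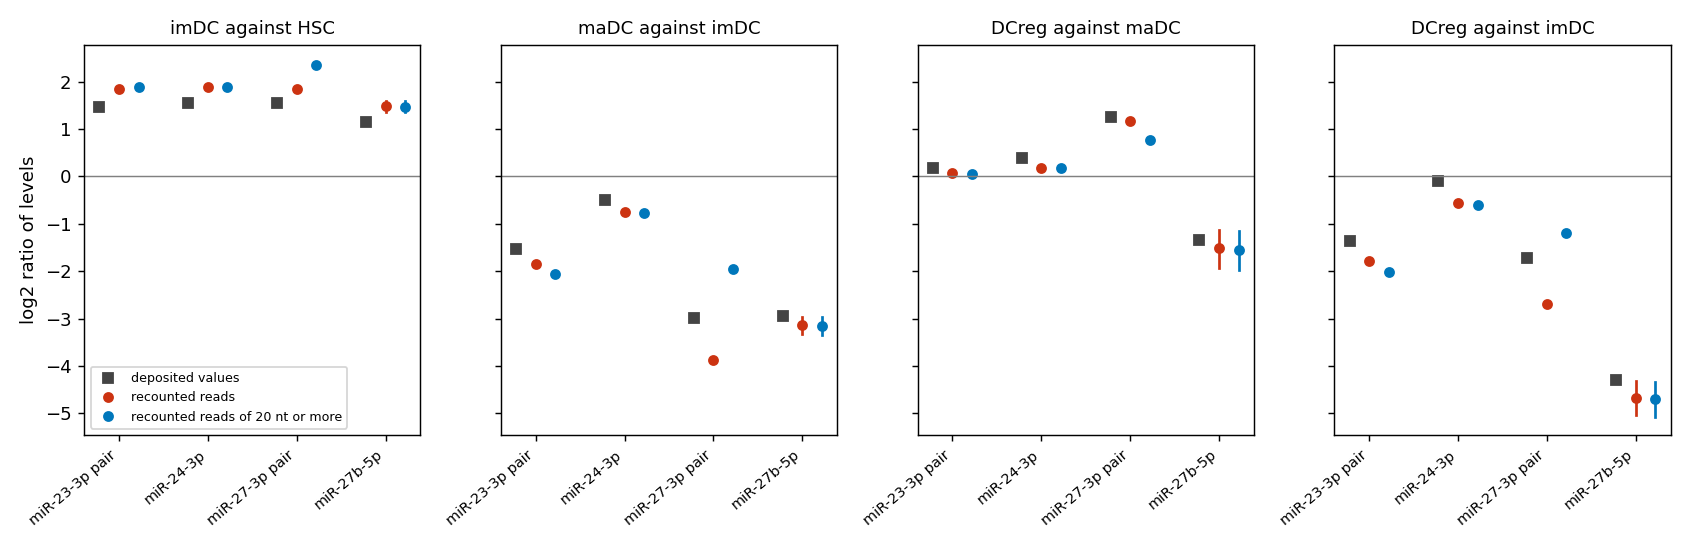
Log2 ratio of levels for the families in the 4 comparisons, as deposited (squares), in recounted reads (red) and in recounted reads of 20 nt or more (blue), with exact 95% counting intervals as bars. For maDC against imDC the miR-27-3p pair goes from 14.6-fold lower to 3.85-fold lower when reads under 20 nt are left out. That limit leaves nearly all reads of miR-27b-5p in.

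From imDC to maDC the read lengths of the miR-23-3p pair went the other way. From HSC to imDC and from maDC to DCreg its share of short reads moved in the same direction as for the miR-27-3p pair. Reads of the miR-23-3p pair under 20 nt were 4.85% in HSC and 2.31% in imDC, then 11.4% in maDC and 14.5% in DCreg. The change of 9.08 points from imDC to maDC was above that of 43 of the 44 other miRNAs. The commonest 19-nt form and the longer forms are shown, with the bases beyond position 19 in capitals.
19 nt: atcacattgccagggattt
20 nt: atcacattgccagggatttC
22 nt: atcacattgccagggatttCCA
23 nt with an added T: atcacattgccagggatttCCAT
The 19-nt form had 450, 818, 1313 and 1126 reads (HSC, imDC, maDC, DCreg), or 3.07, 1.54, 8.51 and 9.73% of the pair. The 22-nt form, 1 base longer than the annotated sequence, had 4019 reads in HSC and 19382 in imDC, then 3738 in maDC and 2191 in DCreg, or 27.4, 36.4, 24.2 and 18.9% of the pair. The 20-nt form had 1212, 2775, 2491 and 2189 reads, or 8.27, 5.22, 16.2 and 18.9%. In DCreg both forms were thus about equally common, and in imDC the longer one was the commonest by far.

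miR-24-3p stood apart by a T at its 3′ end that the hairpins do not hold. The annotated form and the form with the added base, in capitals, are shown.
annotated: tggctcagttcagcaggaacag
with an added T: tggctcagttcagcaggaacagT
The annotated form had 4384 reads in HSC and 28042 in imDC, then 15375 in maDC and 10608 in DCreg. The form with T had 6431, 12993, 9597 and 8806 reads, so that it outnumbered the annotated form in HSC alone. Over all its forms, reads with an added T tail were 52.5% of miR-24-3p in HSC (51.7 to 53.3) and 27.0% in imDC (26.6 to 27.3), then 34.1% in maDC (33.6 to 34.6) and 37.6% in DCreg (37.0 to 38.1). The median of the 44 other miRNAs was 3.67, 1.97, 3.59 and 3.22%, and miR-24-3p stood above all 44 except for 1 in maDC. The miR-23-3p pair also carried T tails, at 23.7, 13.8, 15.3 and 14.1%. For the miR-27-3p pair the counted share was 2.16, 1.75, 6.65 and 5.95%. That count leaves out the 19-nt form ending in T, which made 13.9, 13.9, 10.9 and 17.0% of the pair. Its T is also base 19 of miR-27b-3p, so an added T cannot be told apart there. The T-tail share was highest in HSC for both miR-24-3p and miR-23-3p. The median of the 44 others was about the same in HSC and maDC, at 3.67 and 3.59%.

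miR-3074-5p had almost no reads on its own strand. The deposited table holds 4 entries for the site, miR-24-3p from each of 2 hairpins and miR-3074-5p from each of the opposite hairpins, and each entry held 24.7 to 25.4% of their sum in every library (1162 to 1193 in HSC, 4197 to 4309 in imDC). Reads matching miR-24-3p numbered 14875 in HSC and 55795 in imDC, then 34856 in maDC and 28112 in DCreg. Reads matching miR-3074-5p numbered 34, 13, 3 and 1. The deposited level of miR-3074-5p, 553 to 1620 ppm, therefore followed miR-24-3p and not reads of its own strand.

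The deposited and recounted levels of miR-24-3p also differ in size. Its recounted ppm was 5.14 times its deposited ppm in HSC and 6.53 in imDC, then 5.48 in maDC and 4.75 in DCreg, the highest such ratio among all miRNAs at 100 deposited ppm or more (114 to 161 per library), whose medians were 0.563, 0.741, 0.585 and 0.566. The recounted reads were 3.17 to 3.43 times the sum of all 4 entries. The sources used here do not say how the submitters shared reads among entries.

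The share of each 3p paralog was read at the base that differs, and it does not give the output of a whole cluster. As recounted reads, the 5p arms of the Mir23b cluster summed to 194, 578, 180 and 162 ppm in HSC, imDC, maDC and DCreg. Those of the Mir23a cluster summed to 92.5, 202, 37.8 and 126 ppm in the same order. At the differing base, miR-23a-3p made up 80.9% of the miR-23-3p reads that reach it in HSC and 83.5% in imDC, then 80.7% in maDC and 80.3% in DCreg. The shares were close in all 4 libraries, and the deposited values gave 80.1 to 83.7%.

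For the miR-27-3p pair the same count gave miR-27a-3p 32.0% in HSC and 43.2% in imDC, then 63.1% in maDC and 54.8% in DCreg, but 72.2, 66.9, 14.2 and 24.3% of reads ended before that base. The 19-nt form shown above, which ends on the base that marks miR-27b-3p, had 3266 reads in HSC and 11978 in imDC, then 671 in maDC and 1682 in DCreg. An 18-nt read with an added T would have the same sequence, so these reads cannot be given to miR-27b-3p with certainty. With reads that hold the differing base and the next one, miR-27a-3p made up 65.5% in HSC (63.8 to 67.3) and 75.3% in imDC (74.6 to 76.0), then 72.1% in maDC (70.8 to 73.5) and 70.8% in DCreg (69.6 to 72.1). On that count the a paralog was the larger in every library, and in HSC and imDC the 2 counts differ in which paralog is larger. With full-length reads alone miR-27a-3p made up 51.6, 60.7, 19.5 and 24.6%, the commonest miR-27a-3p form being 1 base shorter than annotated. The share of the miR-27 paralogs thus depends on which read lengths are counted.

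**Figure D4:**
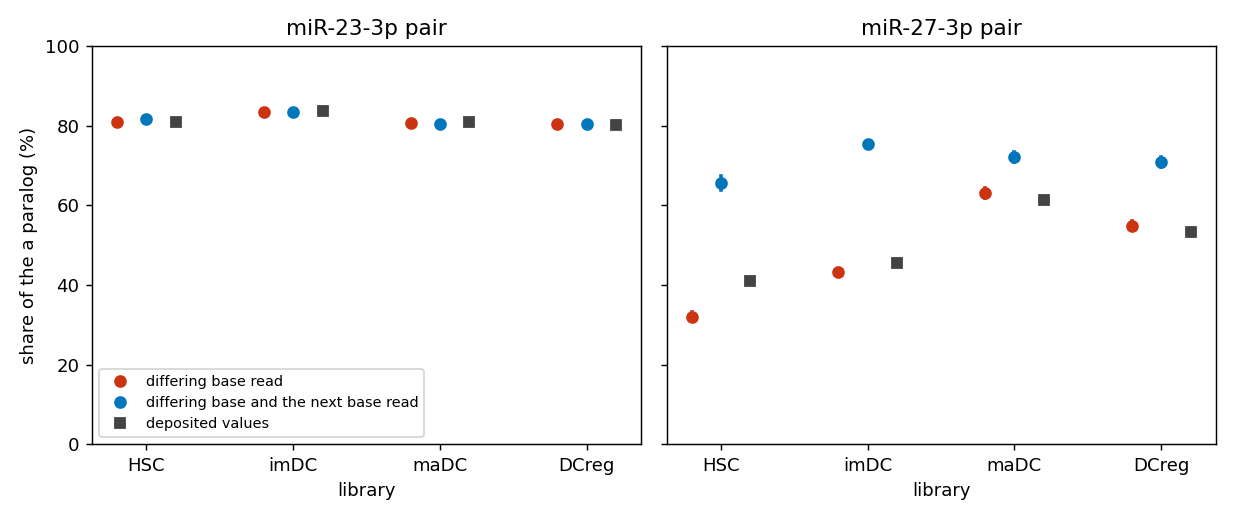
Share of the a paralog within the miR-23-3p and miR-27-3p pairs in percent, by library, from reads that hold the differing base (red), from reads that also hold the next base (blue) and from the deposited values (squares), with exact 95% counting intervals as bars. For miR-23 the 3 counts coincide near 80%, and for miR-27 they lie apart, at 32.0 and 65.5% in HSC.

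The 5p arms of a cluster did not move together. miR-27b-5p fell from 426 ppm of recounted reads in imDC to 48.2 in maDC and 16.8 in DCreg. miR-23b-5p, cut from the same primary transcript, was at 41.2 ppm in HSC and 151 in imDC, then 132 in maDC and 145 in DCreg, and its deposited levels were 83.0, 229, 246 and 275 ppm. Over imDC, maDC and DCreg miR-23b-5p thus stayed within 1.20-fold in the deposited values, while miR-27b-5p went down 19.6-fold.

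In the Mir23a cluster, miR-23a-5p was at 119 ppm in HSC and 187 in imDC, then 59.9 in maDC and 198 in DCreg. It was 3.30-fold higher in DCreg than in maDC (recount 3.70-fold, 3.07 to 4.48), where miR-23a-3p of the same hairpin was 1.11-fold higher. As a share of its hairpin's deposited value miR-23a-5p was 3.01% in HSC and 1.67% in imDC, then 1.59% in maDC and 4.58% in DCreg. miR-23b-5p was 8.42, 9.66, 22.0 and 21.1% of its hairpin, and miR-27b-5p 9.97, 8.35, 11.6 and 1.75%. Each of these arms therefore had its own order of libraries.

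The low arms tell the miR-24 hairpins apart. miR-24-2-5p, from the Mir23a cluster, had 35 reads in HSC and 206 in imDC, then 42 in maDC and 60 in DCreg, and miR-24-1-5p, from the Mir23b cluster, had 2, 5, 1 and 1. miR-27a-5p had 67, 86, 12 and 28 reads. miR-3074-1-3p had 26, 11, 10 and 3 reads. miR-3074-2-3p was listed at 3.31 to 13.9 ppm but had 0 recounted reads in every library, which allows up to 0.543 to 0.763 ppm (3 reads).

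**Figure D5:**
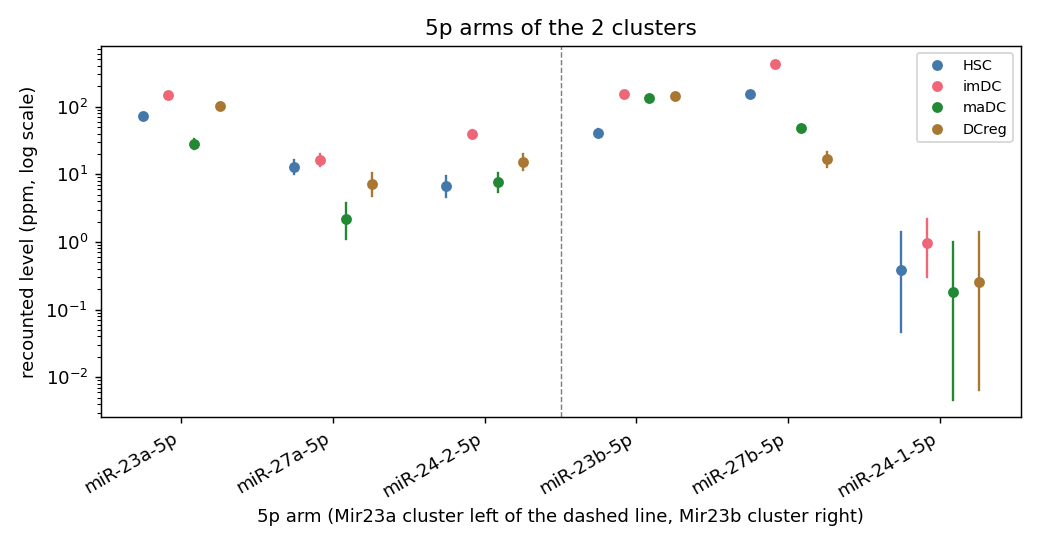
Recounted level of the 5p arms in ppm on a log axis, by library, with exact 95% counting intervals as bars. miR-27b-5p goes from 426 ppm in imDC to 16.8 in DCreg while miR-23b-5p stays between 132 and 151 ppm across the DC libraries.

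The ends of miR-27b-5p also differed between libraries. Its commonest forms are shown with the bases beyond position 20 in capitals.
20 nt: agagcttagctgattggtga
21 nt: agagcttagctgattggtgaA
23 nt: agagcttagctgattggtgaACA
The 21-nt form had 349 reads in HSC and 873 in imDC, then 15 in maDC and 3 in DCreg, and the 20-nt form 286, 669, 19 and 8. The 23-nt form had 45, 327, 152 and 33 reads, which made 5.66, 14.6, 57.1 and 50.0% of the arm. The forms shorter than annotated were the commonest in HSC and imDC and the longer form in maDC and DCreg, the same order as for miR-27-3p, the other arm of that hairpin, although reads of this arm under 20 nt were few.

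The forms of miR-27b-5p differed in how far they fell. Reads shorter than the annotated 22 nt were at 126 ppm in HSC and 311 in imDC, then 6.16 in maDC and 3.56 in DCreg, per all recounted reads. Reads of 22 nt or more were at 26.7, 115, 42.0 and 13.2 ppm in the same order. From imDC to maDC the shorter reads were 50.5-fold lower (36.0 to 73.2) and the longer ones 2.74-fold lower (2.35 to 3.20), and 80.7% of the difference in ppm came from the shorter reads. From maDC to DCreg the longer reads were 3.18-fold lower (2.34 to 4.38), while the shorter ones had 34 and 14 reads, too few to give a direction (1.73-fold lower, 0.904 to 3.49).

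The miRNAs whose log2 levels over the 4 libraries lay nearest to each member were found among 189 miRNAs that reached 100 ppm. The measure is the Euclidean distance after removing each miRNA's mean, and it is a description over 4 points. The nearest to miR-23a-3p were miR-362-3p (0.45) and miR-720 (0.49), to miR-24-3p miR-21-3p (0.35) and miR-28-5p (0.62), and to miR-27a-3p miR-484 (0.69) and miR-5097 (0.90). miR-23a-3p and miR-23b-3p lay 0.27 apart and miR-27a-3p and miR-27b-3p 0.91 apart. miR-24-3p and miR-3074-5p lay 0.017 apart, as their deposited entries held near-equal shares of the site's sum in every library.

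A list of 8 miRNAs tied to PU.1 and myeloid genes (miR-223, miR-342, miR-338, miR-155, miR-146a and miR-322 arms) was set beside the members. Of its 7 tested miRNAs 1, miR-155-5p, was at least 2-fold higher in imDC than in HSC (26.2% of all miRNAs tested). From imDC to maDC 4 of 7 were lower (45% of all). From maDC to DCreg 2 were higher (miR-146a-5p and miR-322-5p) and 3 lower (miR-155-5p, miR-223-5p and miR-342-5p), against 20.3% higher and 28.3% lower of all, and miR-27a-3p and miR-27b-3p were the members on the higher side.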

How the data were processed

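Small RNA was read on an Illumina Solexa sequencer after gel selection and 12 PCR cycles, and clean reads were compared with miRBase release 19, per the labels' protocols. The deposited table gives a normalized value per mature miRNA and hairpin, treated here as a score because the sources used here do not state its normalization. Deposited lists give other values, the copies of each unique sequence. Aligner and mismatch settings are not given there.

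Values were summed over hairpins and divided by the library's sum (ppm). Folds are plain ratios, while log2 ratios and calls added a pseudocount of 0.5 to each value. A miRNA was tested at 100 ppm in either library and called at 2-fold. Reads of 16 nt or more were recounted by exact match to the deposited mature sequences, with starts within 2 nt and up to 5 unmatched 3′ bases, and ties were split equally. Read lengths, ends and forms came from a separate count with matches extended along RefSeq hairpins, so its totals differ slightly. Other genome matches were not checked. Matching was tested on simulated reads (198 of 202 miRNAs had a sequence of their own, and 97.98% of these came within 0.1 on the log2 scale). The simulated reads lacked at most 2 bases at the 3′ end. The test therefore did not cover miR-27-3p reads of 17 or 18 nt, which fit both paralogs. Intervals are exact (Poisson, conditional binomial or Clopper-Pearson, 95%). PCR copies are not independent molecules. Python 3.11.15, numpy 2.4.6 and scipy 1.17.1 were used. The named miRNAs were the 7 members, the 7 other arms, 2 nearest miRNAs per member and the PU.1 list. The members and lists were chosen with earlier results of these data known.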

Additional observations from a re-analysis of the deposited data

How the results depend on the processing

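No paired analysis was possible because each stage has 1 library and the labels give no replicate numbers. There was thus no replicate to leave out. The alternatives with reads of 20 nt or more, with reads of 22 nt or more and with the next base read were chosen after seeing the data. The normalization of the deposited values is unstated.

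Counts of members past the limit that changed by more than 1.5 times, or to or from 0, were these. In imDC against HSC it was 7 higher and became 1 at 3-fold. In maDC against imDC it was 5 lower and became 3 with median of ratios and 3 at 3-fold. In DCreg against maDC it was 2 higher and became 1 with all listed reads as the total, 1 in recounted reads, 0 at 3-fold and 0 with reads of 20 nt or more, and the count lower was 0 and became 1 with no minimum level and 1 at 50 ppm. In DCreg against imDC it was 5 lower and became 2 with TMM, 2 with median of ratios, 3 without the 5 most abundant miRNAs and 2 at 3-fold. Smaller changes were 7 to 6 higher for imDC against HSC in recounted reads and with reads of 20 nt or more, 5 to 4 lower for maDC against imDC with TMM, and 5 to 4 lower for DCreg against imDC with the largest value over hairpins and with reads of 20 nt or more. Log2 shifts of all ratios ranged from -0.53 with all reads as the total to 0.72 with median of ratios, both for DCreg against imDC.

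The log2 ratio of miR-3074-5p for imDC against HSC turned from 1.55 to -1.37 in recounted reads, -1.36 with single matches and -1.27 with reads of 20 nt or more, as its deposited values do not rest on reads of its strand. The share of miR-23a-3p moved by more than its interval with full-length reads, to 79.8% in HSC, 87.1% in imDC and 79.1% in DCreg, and with the next base to 81.6% in HSC. The share of miR-27a-3p was 40.9, 45.4, 61.4 and 53.2% as deposited, 51.6, 60.7, 19.5 and 24.6% with full-length reads, and 65.5, 75.3, 72.1 and 70.8% with the next base, in HSC, imDC, maDC and DCreg. With each unique sequence counted once, reads under 20 nt were 22.5, 17.6, 16.2 and 22.3% of miR-27-3p and T tails 19.1, 11.7, 12 and 15.1% of miR-24-3p. Of 28 member folds none moved by more than its counting interval with a pseudocount of 5, while in recounted reads 23 moved beyond it and 1 more, that of miR-3074-5p, reversed. The log2 ratio of miR-27b-5p for maDC against imDC, -2.95, was -1.45 with reads of 22 nt or more.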

Other observations

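Few reads matched the hairpins outside the annotated arms. Mir27a had 18 such reads in HSC and 8 in imDC, then 0 in maDC and 3 in DCreg, Mir27b had 1, 3, 0 and 0, and Mir24-2 had 1 in HSC and 0 in the others. These counts are too low for a comparison between libraries.

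As recounted reads, miR-27a-5p was 0.626% of the Mir27a hairpin's arms in HSC and 0.208% in imDC, then 0.317% in maDC and 0.524% in DCreg. With reads of 20 nt or more, miR-27b-5p was 41.4% of the Mir27b arms in HSC and 35.1% in imDC, then 17.5% in maDC and 3.91% in DCreg, against 5.80, 4.76, 9.97 and 1.42% over all reads. The order of HSC and maDC for this arm share thus differed between the 2 counts.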
